A study of Mus musculus with 30 samples.

Results

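The genes described here mark the walls of brain blood vessels: 36 genes of endothelial cells, pericytes and vascular smooth muscle cells, out of 17477 genes in the count table. They were picked by name as markers of these cells and of the blood-brain barrier, and all 36 were found by symbol. Endothelial cells account for 28 of them and the mural cells, which wrap the endothelial tube, for 8. The mural genes divide into 5 of pericytes and 3 of smooth muscle.

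Endothelial cells of brain capillaries form the blood-brain barrier. Tight junctions seal the clefts between neighbouring cells, transporters in their membranes select what enters the brain and what is pumped back into the blood, and pericytes sharing their basement membrane help to keep the barrier closed. Arterioles carry smooth muscle in place of pericytes and set blood flow by contracting. VEGF receptors, the angiopoietin receptor and its partner govern how these vessels grow and are maintained.

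Expression was measured by poly-A RNA-seq in bulk hippocampus of adult C57 BL/6J mice, of 1 strain and with no introduced allele or drug. Social isolation (SI) mice were kept alone in a cage from weaning, and group-housed (GH) mice shared cages. Each mouse gave 1 library: 8 of SI females, 7 of GH females, 7 of SI males and 8 of GH males. The sources used here do not say which GH mice shared a cage, so the tests treat them as independent.

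Total counts per library ranged from 18809307 to 100844898. SI males 25, 33 and 39 stood apart, with counts leaning to short transcripts: the slope of log2 level on log2 transcript length was between -0.44 and -0.34 in them and at least -0.126 in the other 27 mice. They also had the highest summed level of the erythrocyte list, from 647 to 776 CPM (counts scaled to the library size, after TMM normalization over all 30 mice) against at most 340 elsewhere. Male counts and the male values that moved most are therefore also given without these mice.

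Every one of the 36 genes had counts in every mouse, and the lowest count of any of them in any mouse was 52, for Abcc9. All 36 passed the filter on low counts in every fit, so none was lost to it. Per kilobase of the longest transcript, the mean level over the 15 GH mice ran from 0.683 CPM for Abcc9, a subunit of a potassium channel of mural cells, to 274 CPM for Bsg. Bsg encodes basigin, a membrane protein that other brain cells also make. Next below it on this scale came Vtn, encoding the secreted protein vitronectin, at 40.6 CPM per kilobase, the phospholipid transfer protein gene Pltp at 39.1 and the tight junction gene Cldn5 at 34.7. The endothelial transcription factor genes Sox17, Erg and Ets1 lay between 1.77 and 2.39. As these are bulk samples, a change in the number of cells of a type and a change in RNA per cell cannot be told apart.

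The effect of isolation was tested in each sex apart with edgeR's quasi-likelihood test over all genes, with surrogate variables in the model, and a gene counted as called when its p, adjusted after Benjamini and Hochberg over all genes, was under 0.05. A log2 fold change (Log2FC) gives SI relative to GH as fitted, and its error is the standard error (SE). Levels per mouse are in CPM and carry no such adjustment.

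In females, isolation was accompanied by higher Flt1, which encodes the VEGF receptor VEGFR1, and by no other called change among the 36 genes. That is 1 gene of 36, where 3.89% of all 16026 genes tested were called in females. At an unadjusted p under 0.05 there were 12 of the 36, against 20.2% of all genes, with 9 higher and 3 lower in SI. Over all genes 9.29% had such a p and were higher, and 11% had such a p and were lower. The 9 higher genes were Flt1, Kdr, Cldn5, Esam, Pglyrp1, Ets1, Ly6a, Bsg and Abcc9, and the 3 lower were Vwf, Pdgfrb and Myl9. Of the 28 endothelial genes 22 had a positive Log2FC, with a median of 0.09, and of the 8 mural genes 4 did, with a median of -0.04, beside a median of 0.01 over all genes. Leaving out 1 female gave 0 to 3 called genes among the 36, where 88 to 1428 of all genes were called.

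In males 0 of the 36 genes were called, as 0% of the 15833 genes tested in males were called by edgeR. Of the 36, 9 had an unadjusted p under 0.05, against 13% of all genes, and all 9 were higher in SI, where 5.63% of all genes had such a p and were higher and 7.38% were lower. They were Esam, Pltp, Pglyrp1, Egfl7, Eng and Bsg on the endothelial side and Acta2, Myl9 and Vtn on the mural side. DESeq2 with the same surrogate variables also called 0 of the 36, where it called 44 of all 15833 genes, with 9 of the 36 at an unadjusted p under 0.05. That number was 4 after removal of the trend on transcript length and GC content. It was 6 with the labels' position digit in place of surrogate variables and 13 without surrogate variables, and 0 were called in each. Of the 28 endothelial genes 19 had a positive Log2FC (median 0.08), and of the 8 mural genes 6 did (median 0.18), beside a median of 0.00 over all genes. Without SI males 25, 33 and 39, 1 of the 36 genes, Esam, had an unadjusted p under 0.05. For these other fits the share of all genes with such a p is not given. Whether the numbers among the 36 moved apart from those of all genes was not tested. Without SI male 27 edgeR called 8 of the 36, all higher in SI (Esam, Bsg, Pltp, Egfl7, Pglyrp1, Vtn, Acta2 and Myl9), where 15.3% of the 15790 genes tested were called, and leaving out any other male gave 0.

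**Figure D1:**
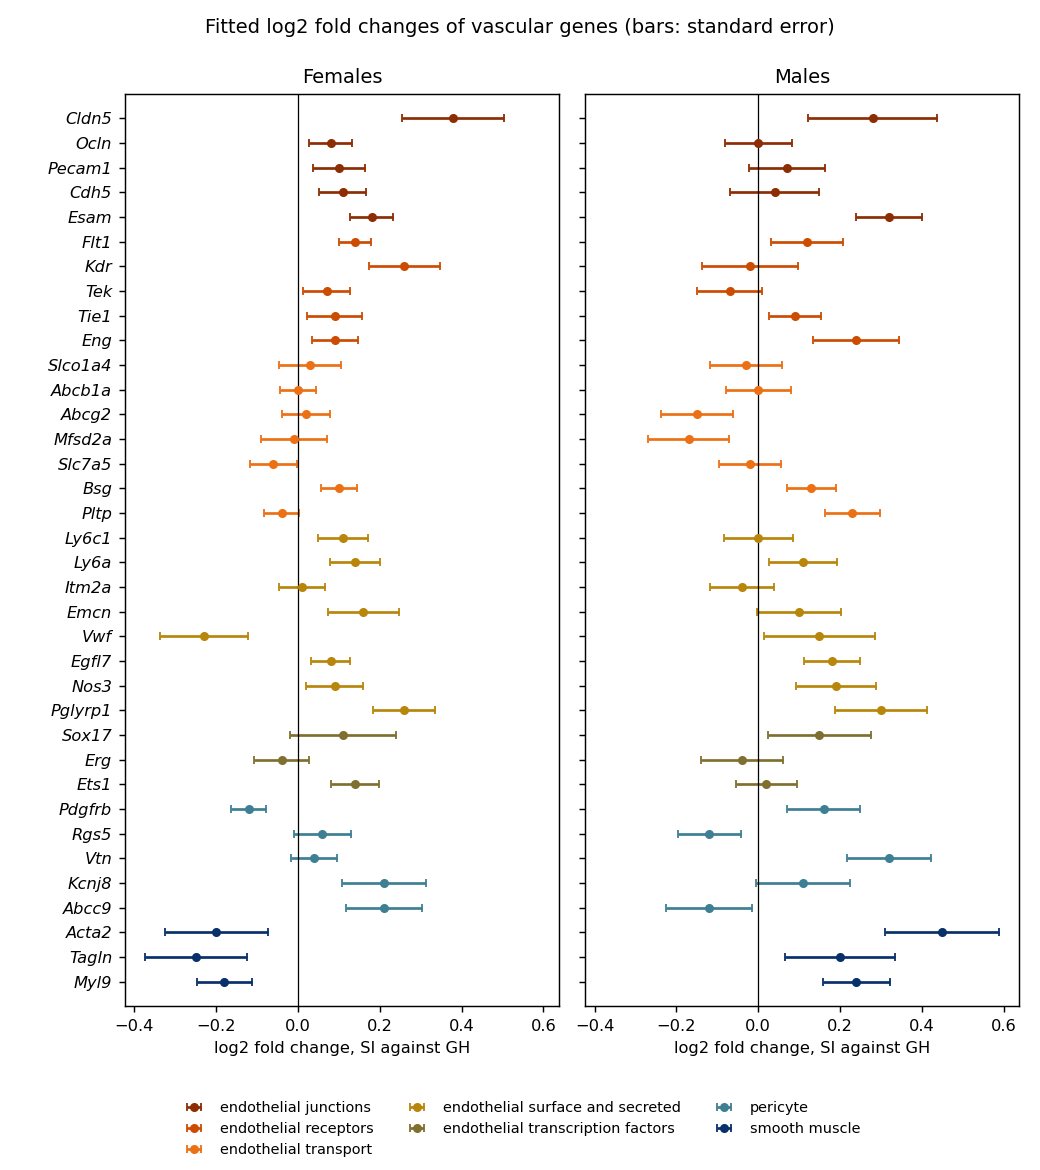
Fitted log2 fold change of SI against GH for each of the 36 genes in females (left) and males (right), with bars for the standard error and colours for the role of the gene. Acta2, Tagln and Myl9 lie left of 0 in females (-0.25 to -0.18) and right of 0 in males (0.20 to 0.45).

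Among the receptors of the endothelial surface, Flt1 (ENSMUSG00000029648; minus strand, chr5:148373180-148537587 on NCBIM37) binds VEGF with high affinity and holds it away from the signalling receptor. In GH females its level was between 42.6 and 53.5 CPM with a median of 50, and in SI females between 46.5 and 61.8 with a median of 55.5. The ranges overlapped, and 5 of the 8 SI females lay above the highest GH female. Its Log2FC was 0.14 (SE 0.0385; edgeR adjusted p = 0.0496), a 1.10-fold difference just inside the threshold. With each female left out in turn the call was lost in 9 of 15 fits, those without SI female 45, 49, 63, 68 or 73 or GH female 48, 54, 71 or 79, where the edgeR adjusted p was 0.0514 to 0.18. Of the 8 other settings tried, DESeq2 with the same surrogate variables and removal of the trend on transcript length and GC content called Flt1, and the other 6 did not. In GH males Flt1 was between 46.2 and 66.1 CPM (median 53.6), and in SI males between 56.8 and 76.5 (median 61.0). All 7 SI males were above the GH median, but the Log2FC of 0.12 (SE 0.088) was not called (edgeR adjusted p = 0.559), and it was 0.07 without SI males 25, 33 and 39.

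Kdr, encoding the signalling VEGF receptor VEGFR2, was described in full after its values were seen. Its level in GH females ran from 8.16 to 15.8 CPM (median 11.3), and in SI females from 11.5 to 17.7 (median 14.9). All 8 SI females were above the GH median and 4 GH females were below the lowest SI female, with a Log2FC of 0.26 (SE 0.087; edgeR adjusted p = 0.103). In males the ranges were 10.2 to 18.0 CPM under GH (median 14.5) and 7.27 to 17.9 under SI (median 13.9). The 3 lowest SI males, at 7.27, 7.55 and 8.50 CPM, were animals 33, 25 and 39. The Log2FC in males was -0.02 (SE 0.118; edgeR adjusted p = 0.95). Kdr has a transcript of 5924 bases and Flt1 one of 6895.

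Tek and Tie1, the angiopoietin receptor TIE2 and its partner TIE1, had Log2FC of 0.07 and 0.09 in females and -0.07 and 0.09 in males, with edgeR adjusted p from 0.469 to 0.717. Eng, encoding the TGF-beta co-receptor endoglin, was at a median of 19.1 CPM in SI females (17.5 to 23) and 17.5 in GH females (13.9 to 23.2), with a Log2FC of 0.09 (SE 0.0567). SI males were at a median of 23.1 CPM (20.1 to 31.2) and GH males at 19.3 (18.3 to 24.2). Its Log2FC in males was 0.24 (SE 0.105; edgeR adjusted p = 0.367), and 0.03 without SI males 25, 33 and 39. The gene span of Eng, introns included, overlaps that of Ak1 on the same strand by 211 bases and that of Fpgs on the other by 61. The strand setting of the counting is not given in the sources used here, so reads from those stretches may be shared and the counts of Eng are uncertain.

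All 5 genes of the junctions between endothelial cells had a positive Log2FC in females (0.08 to 0.38), and in males the range was 0.00 to 0.32. In females 2 of the 5 had an unadjusted p under 0.05 and in males 1 did, where 20.2% and 13% of all genes did.

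Esam (ENSMUSG00000001946; plus strand, chr9:37335663-37345904 on NCBIM37) encodes an adhesion molecule of endothelial tight junctions. In GH females it was between 8.74 and 11.2 CPM (median 9.93), and in SI females between 10.3 and 13.4 (median 11.6). All 8 SI females exceeded the GH median, and the Log2FC was 0.18 (SE 0.0516; edgeR adjusted p = 0.0655). In GH males Esam was between 9.31 and 12.7 CPM (median 11.7), and in SI males between 12.4 and 17.6 (median 16.5). Here 6 of 7 SI males exceeded every GH male, and the exception was animal 8. The Log2FC in males was 0.32 (SE 0.0797), and with an unadjusted p of 0.000992 its edgeR adjusted p was 0.295. Without SI males 25, 33 and 39 the Log2FC was 0.24 (unadjusted p = 0.00963), and without SI male 27 it was 0.37 with an edgeR adjusted p of 0.00981.

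Cldn5, claudin-5, is the main claudin of the tight junctions of brain endothelium. Its level in GH females was from 30.1 to 53.5 CPM (median 43.5) and in SI females from 38.9 to 72.9 (median 55.9). The groups overlapped, with 5 of 8 SI females higher than any GH female, and the Log2FC of 0.38 (SE 0.125) was not called (edgeR adjusted p = 0.0971). GH males were at 33.2 to 76.0 CPM (median 54.8) and SI males at 55.4 to 146 (median 85.6). The 3 highest SI males, at 112, 119 and 146 CPM, were animals 39, 33 and 25. Its Log2FC in males was 0.28 (SE 0.157; edgeR adjusted p = 0.444), and 0.11 without those animals.

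Pecam1, an adhesion molecule between endothelial cells, was at 16.7 to 21.0 CPM in GH females (median 17.4) and 17.5 to 22.7 in SI females (median 20.1), with a Log2FC of 0.10 (SE 0.0638; edgeR adjusted p = 0.392). It was at 16 to 22.9 CPM in GH males (median 18.1) and 16.9 to 21.8 in SI males (median 20.9), with a Log2FC of 0.07 (SE 0.0932; edgeR adjusted p = 0.78). The ranges overlapped in both sexes. Cdh5, the cadherin of endothelial adherens junctions, had Log2FC of 0.11 and 0.04 in females and males, and Ocln, occludin, 0.08 and 0.00.

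**Figure D2:**
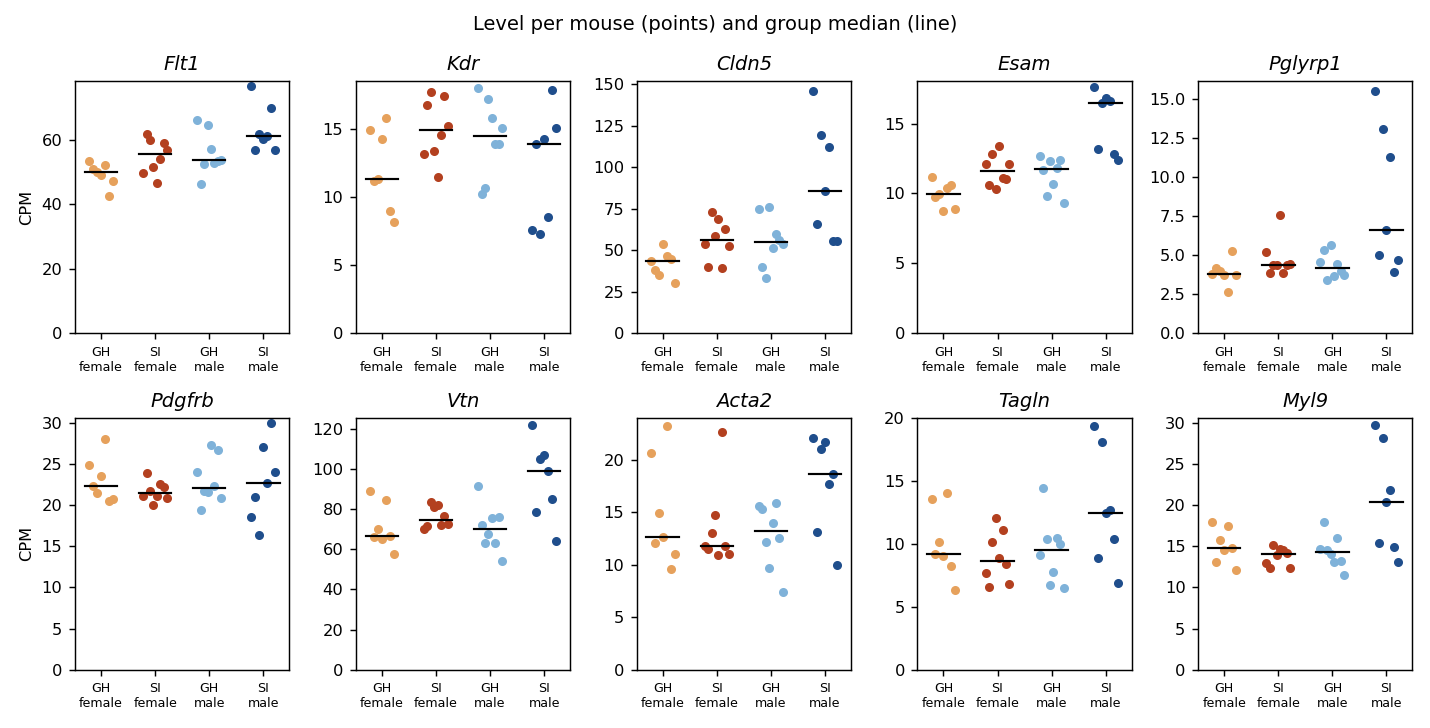
Level in CPM of 10 of the genes, with 1 point per mouse and a line at the median of each of the 4 groups. In Esam, 6 of 7 SI males lie above the highest GH male, while in the other panels at most 5 SI mice of a sex do so.

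The 7 genes of transport across the barrier had Log2FC from -0.06 to 0.10 in females (median 0.00) and from -0.17 to 0.23 in males (median -0.02), and none was called. Abcb1a, encoding the efflux pump P-glycoprotein, was at 23 to 29.3 CPM in GH females (median 28.5) and 22.1 to 31.3 in SI females (median 28.1). Its Log2FC was 0.00 (SE 0.0445; edgeR adjusted p = 0.981). GH males were at 23.3 to 28.8 CPM (median 26.4) and SI males at 11.5 to 30 (median 24.1). Animals 33, 25 and 39 held the 3 lowest values, 11.5, 13.2 and 16 CPM, below every GH male, and the Log2FC was 0.00 (SE 0.0798; edgeR adjusted p = 0.995), or 0.09 without them. Reads of Abcb1a can be shared with its close paralog Abcb1b.

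Mfsd2a, which carries lysophospholipids with omega-3 fatty acids into the brain, was at 10.7 to 17.0 CPM in GH females (median 15.1) and 12.7 to 15.9 in SI females (median 14). Its Log2FC was -0.01 (SE 0.0799; edgeR adjusted p = 0.951). In GH males it was at 13 to 19.1 CPM (median 15.2) and in SI males at 11.1 to 15.5 (median 12.9). There 4 of 7 SI males lay below the lowest GH male, and the Log2FC of -0.17 (SE 0.0987) was not called (edgeR adjusted p = 0.456) and was -0.10 without SI males 25, 33 and 39.

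Pltp, which moves phospholipids between lipoproteins, was at 77.6 to 119 CPM in GH females (median 86.5) and 82.6 to 112 in SI females (median 93.3), with a Log2FC of -0.04 (SE 0.0422; edgeR adjusted p = 0.661). GH males were at 57.0 to 91.2 CPM (median 84.3) and SI males at 66.9 to 112 (median 100). In males 4 of 7 SI mice were above the highest GH mouse, and the Log2FC was 0.23 (SE 0.0675; edgeR adjusted p = 0.295). It was 0.11 without SI males 25, 33 and 39, and 0.09 without SI male 7 and GH male 3 together, a setting chosen after seeing the data. The gene span of Pltp, introns included, overlaps that of Ctsa on the opposite strand by 1515 bases. Without a known strand setting, reads from that stretch may be shared between the pair.

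Among the other transporters, Bsg had Log2FC of 0.10 and 0.13 in females and males, with unadjusted p of 0.0447 and 0.0454, neither of them called. The efflux pump gene Abcg2 was at 0.02 and -0.15, the organic anion carrier gene Slco1a4 at 0.03 and -0.03, and Slc7a5, of the large neutral amino acid carrier, at -0.06 and -0.02. Slc2a1, the glucose carrier GLUT1 of the barrier, is outside the 36 genes and was read from a wider list. It had a median of 92.3 CPM in SI females (79.2 to 111) and 95.0 in GH females (85.2 to 111), and of 86.3 in SI males (82.9 to 107) and 92.4 in GH males (75.4 to 115). Its Log2FC was -0.03 in females (SE 0.0437; edgeR adjusted p = 0.738) and 0.02 in males (SE 0.0829; edgeR adjusted p = 0.947).

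Of the 8 endothelial genes for surface and secreted products, 7 had a positive Log2FC in females and 7 in males, with medians of 0.10 and 0.13. Pglyrp1, a peptidoglycan recognition protein found in brain endothelium and in blood granulocytes, was at 2.65 to 5.26 CPM in GH females (median 3.81) and 3.84 to 7.54 in SI females (median 4.36). All 8 SI females were above the GH median, and its Log2FC was 0.26 (SE 0.0757; edgeR adjusted p = 0.0638). It was called by DESeq2 with the same surrogate variables (adjusted p = 0.0492). GH males were at 3.42 to 5.61 CPM (median 4.18) and SI males at 3.88 to 15.5 (median 6.57). SI males 39, 33 and 25, at 11.3, 13.1 and 15.5 CPM, were the 3 highest of all mice. The Log2FC in males was 0.30 (SE 0.112; edgeR adjusted p = 0.33), and 0.12 without them. At 681 bases Pglyrp1 has the shortest transcript of the 36 genes.

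Egfl7, a secreted factor of endothelial cells, was at 22.9 to 39.2 CPM in GH females (median 28.6) and 25.5 to 37.3 in SI females (median 30.7), with a Log2FC of 0.08 (SE 0.0468; edgeR adjusted p = 0.334). In males it was at 25.9 to 33.8 CPM under GH (median 29.9) and 26.8 to 66.6 under SI (median 40.8). Its Log2FC in males was 0.18 (SE 0.0686; edgeR adjusted p = 0.332), and 0.05 without SI males 25, 33 and 39, which were again the 3 highest. The gene span of Egfl7, introns included, overlaps that of a same-strand gene model, Gm20532, by 6482 bases, and the counts of Egfl7 are uncertain.

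Vwf, von Willebrand factor, was the 1 of these 8 with a negative Log2FC in females, at -0.23 (SE 0.107; unadjusted p = 0.0483), and was at 0.15 (SE 0.135) in males. In GH females it ran from 10.2 to 32.9 CPM (median 18.8), and animal 71, the highest, was also the highest in Acta2 and Tagln. Ly6a and Ly6c1, surface proteins of the Ly6 family whose related copies can share reads, had Log2FC of 0.14 and 0.11 in females and 0.11 and 0.00 in males. Emcn, Nos3 and Itm2a lay within 0.01 to 0.16 in females and -0.04 to 0.19 in males. Of the transcription factors, Ets1 was at 0.14 in females (unadjusted p = 0.0259) and 0.02 in males, Sox17 at 0.11 and 0.15, and Erg at -0.04 in both.

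The 3 genes of arteriolar smooth muscle encode the actin filament of the contractile apparatus (Acta2), the actin-binding protein transgelin (Tagln) and the regulatory light chain of myosin (Myl9). Their Log2FC was negative in females, at -0.20 (SE 0.126), -0.25 (SE 0.125) and -0.18 (SE 0.0666), and positive in males, at 0.45 (SE 0.14), 0.20 (SE 0.135) and 0.24 (SE 0.0817). None was called in either sex, with edgeR adjusted p from 0.132 to 0.392 in females and from 0.300 to 0.524 in males.

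Serum response factor is known to drive such genes through the CArG box, a motif in their promoters. The promoter sequences of Myl9 and Acta2 are shown because these genes had the opposite signs in the sexes and each holds matches to the motif. They come from RefSeq on GRCm38.p6, read 5′ to 3′ on the strand of the gene. Capitals mark CArG-like matches, which here means the motif of 10 letters with at most 1 C or G among its 6 central letters. The Myl9 stretch is on the plus strand at chr2:156775243-156775419, with matches that begin 161 and 99 bases before the transcription start, of which the farther is a full CArG box. The Acta2 stretch is on the minus strand at chr19:34255374-34255517, with matches 84 and 34 bases before the start.
Myl9: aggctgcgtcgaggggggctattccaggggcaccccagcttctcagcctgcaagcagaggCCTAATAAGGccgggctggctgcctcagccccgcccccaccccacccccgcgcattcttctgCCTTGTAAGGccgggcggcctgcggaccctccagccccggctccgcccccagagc
Acta2: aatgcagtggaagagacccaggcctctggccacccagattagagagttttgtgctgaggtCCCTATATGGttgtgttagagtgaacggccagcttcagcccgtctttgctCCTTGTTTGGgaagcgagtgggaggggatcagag

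The window searched was the 250 bases before the start, on both strands. Of the 36 genes 24 had a promoter in the table, 18 endothelial and 6 mural, and Tagln had none. A gene counted when any of its promoters held a match. A full CArG box was found for 1.62% of all 27025 genes with a promoter, and for Myl9 alone among the 24. A CArG-like match was found for 9.78% of all these genes, for 2 of 6 mural and for 5 of 18 endothelial genes. For comparison, the ETS motif CNGGAAGT was found for 8.62% of all genes and for 3 of 18 endothelial ones (Abcg2, Egfl7 and Tie1). The SOX motif AACAAT was found for 10.9% of all and for 4 of 18 (Emcn, Erg, Slco1a4 and Tek). A CArG box is itself counted as a CArG-like match, and a match is a description of the sequence, not a measured binding site.

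Acta2 (ENSMUSG00000035783; minus strand, chr19:34315580-34329826 on NCBIM37) was at 9.58 to 23.2 CPM in GH females (median 12.6) and 10.9 to 22.6 in SI females (median 11.8). GH females 71 and 46, at 23.2 and 20.6 CPM, and SI female 63, at 22.6, stood above the other 12 females, whose highest was 14.9. In GH males it was at 7.36 to 15.9 CPM (median 13.2) and in SI males at 9.94 to 22.1 (median 18.6). There 5 of 7 SI males lay above the highest GH male, and animals 8 and 27 did not. The Log2FC in males went from 0.45 to 0.19 without SI males 25, 33 and 39, to 0.16 without SI male 7 and GH male 3, and to 0.59 without SI male 27 (edgeR adjusted p = 0.00741). Acta2 is close in sequence to other actin genes, so reads can be shared with them.

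Myl9 (ENSMUSG00000067818; plus strand, chr2:156601156-156607394 on NCBIM37) was at 12.1 to 17.9 CPM in GH females (median 14.8) and 12.3 to 15.2 in SI females (median 14.1). The ranges overlapped, with 3 GH females above the highest SI female and 1 of 8 SI females above the GH median. In GH males it was at 11.5 to 18.0 CPM (median 14.2) and in SI males at 13.1 to 29.7 (median 20.4). Of the 7 SI males 4 lay above the highest GH male, led by animals 25 and 33 at 29.7 and 28.1 CPM. Its edgeR adjusted p was 0.132 in females and 0.316 in males, and the male Log2FC of 0.24 was 0.10 without SI males 25, 33 and 39.

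Tagln, described in full after its values were seen, was at 6.32 to 14.1 CPM in GH females (median 9.22) and 6.60 to 12.1 in SI females (median 8.66), with 2 GH females above every SI female. In males it was at 6.47 to 14.5 CPM under GH (median 9.57) and 6.89 to 19.4 under SI (median 12.5). Of the SI males, animals 25 and 33 alone exceeded every GH male, and the male Log2FC of 0.20 was 0.10 without SI males 25, 33 and 39. The gene span of Tagln overlaps that of Pcsk7 on the opposite strand by 65 bases.

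Across mice the smooth muscle genes varied together. After removal of the group means, the correlation of log2 CPM over the 30 mice was 0.81 for Acta2 with Tagln, 0.67 for Acta2 with Myl9 and 0.88 for Tagln with Myl9. The median was 0.11 over the 378 pairs of endothelial genes and -0.02 over the 10 pairs of pericyte genes. Each value describes these 30 libraries, which share their depth and length trend across genes, and the range over endothelial pairs was -0.86 to 0.96. Ly6a and Ly6c1, neighbours in 1 gene family, stood at 0.92.

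The mean log2 CPM of the smooth muscle genes was lowest in GH male 3 (3.04) and highest in SI male 25 (4.55). In GH females it was from 3.25 in animal 79 to 4.16 in animal 71. A hippocampal dissection can include choroid plexus and vascular fibroblasts, whose genes were read in the same mice. The summed choroid plexus list of 10 genes was at 877 CPM in GH female 79 and 5040 in GH female 71, the lowest and the highest of its group, and the summed list of 10 vascular fibroblast genes was at 149 and 532 in the same mice. GH male 3 and SI male 8, each with the lowest smooth muscle mean of its group, had choroid plexus sums of 43.9 and 43.8 CPM, and SI male 25, with the highest mean, had 4200. GH male 2, at 80.0 CPM of choroid plexus genes, had a smooth muscle mean of 3.28, and SI male 33, at 3860, one of 4.46. SI male 7, at 43.4 CPM of choroid plexus genes, had a smooth muscle mean of 3.84. That was above 7 of the 8 GH males, but in its own group above animals 8 and 27 alone. Not every mouse had both values low or both high. SI females 73 and 45 had the lowest smooth muscle means of their group (3.29 and 3.30). Their choroid plexus sums were 3020 and 3330 CPM and their fibroblast sums 286 and 338 CPM. GH male 1 had a mean of 3.68, the third highest of its group, with a choroid plexus sum of 164 CPM. Over groups, the choroid plexus sums ran from 1590 to 4080 CPM in SI females, 877 to 5040 in GH females, 43.4 to 4200 in SI males and 43.9 to 2280 in GH males. The fibroblast sums ran from 220 to 339, 149 to 532, 117 to 262 and 120 to 280 CPM in the same order. Ttr, with a transcript of 1219 bases, held most of the choroid plexus sum of SI male 25 (4030 CPM), GH female 71 (4520) and GH female 79 (775). Igf2 was at 325 CPM of the fibroblast sum of GH female 71. Among SI males, animal 25 was the highest in Ttr, Folr1, Kcne2, Aqp1 and Sostdc1. Animal 38 was the highest of them in Clic6, Kl, Otx2, Cldn2 and Slc4a5. No gene of either list was at 0 in all mice, and 0 of 10 choroid plexus and 0 of 10 fibroblast genes were called in either sex. Of the fibroblast genes 8 of 10 had a negative Log2FC in females (median -0.11) and 8 of 10 a positive one in males (median 0.06), the signs of the smooth muscle genes. The choroid plexus genes had the opposite signs, with 10 of 10 positive in females (median 0.21) and 8 of 10 negative in males (median -0.12).

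When the mean log2 level of the choroid plexus genes was added to the model, a setting chosen after seeing the data, the Log2FC of Acta2, Tagln and Myl9 was -0.23, -0.30 and -0.17 in females and 0.41, 0.18 and 0.23 in males. Without GH females 71 and 79 it was -0.12, -0.18 and -0.16 in females. Without SI male 7 and GH male 3 it was 0.16, 0.03 and 0.24 in males. The part of fibroblast genes in these values was not tested.

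**Figure D3:**
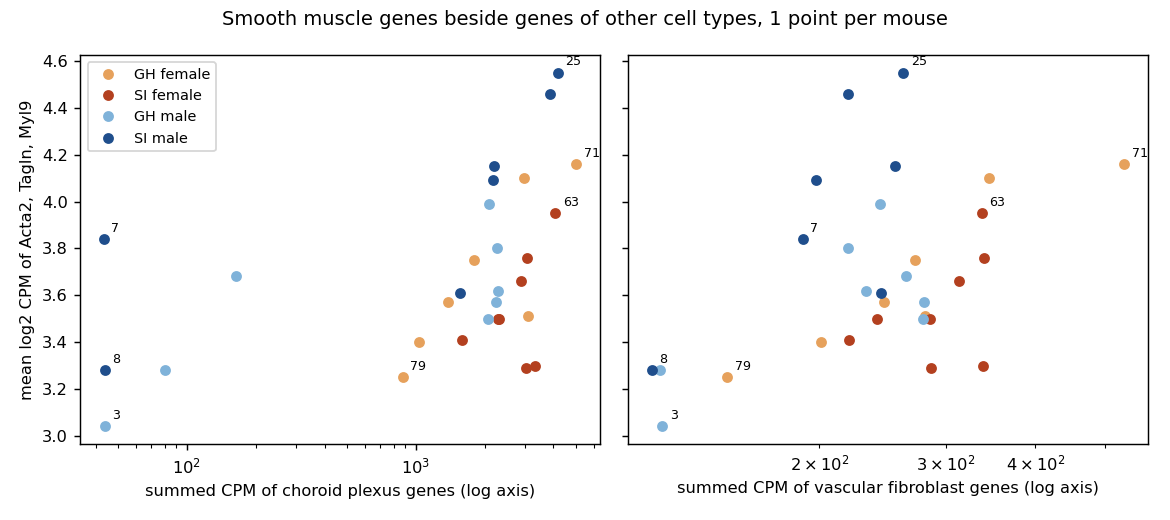
Mean log2 CPM of Acta2, Tagln and Myl9 in each mouse against the summed CPM of choroid plexus genes (left) and of vascular fibroblast genes (right), both on log axes, with colours for the 4 groups. Numbers mark animals 3, 7, 8, 25, 63, 71 and 79, and other mice named in the text are not numbered. GH females run from animal 79 at the lower left to animal 71 at the upper right in both panels, and SI male 25 is the highest of all mice.

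Of the 5 pericyte genes 4 had a positive Log2FC in females (median 0.06) and 3 in males (median 0.11), and none was called. Pdgfrb, the receptor through which endothelial PDGF-B recruits pericytes, was at 20.5 to 28 CPM in GH females (median 22.3) and 20 to 23.9 in SI females (median 21.4). Its Log2FC was -0.12 (SE 0.0429; edgeR adjusted p = 0.111). GH males were at 19.4 to 27.3 CPM (median 22) and SI males at 16.3 to 29.9 (median 22.6), with a Log2FC of 0.16 (SE 0.0898; edgeR adjusted p = 0.436). In males the Log2FC was -0.01 without surrogate variables, 0.00 without SI male 7 and GH male 3, and 0.08 without SI males 25, 33 and 39.

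Vtn was at 57.6 to 89.0 CPM in GH females (median 66.6) and 69.8 to 83.4 in SI females (median 74.4), with a Log2FC of 0.04 (SE 0.0564; edgeR adjusted p = 0.761). In males it was at 54.3 to 91.6 CPM under GH (median 69.9) and 64.3 to 122 under SI (median 99.1), and 4 of 7 SI males exceeded all GH males. The Log2FC in males was 0.32 (SE 0.103; edgeR adjusted p = 0.300), and 0.17 without SI males 25, 33 and 39.

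Kcnj8 and Abcc9 encode the pore and the regulatory subunit of the ATP-sensitive potassium channel of mural cells, and both had a Log2FC of 0.21 in females (unadjusted p = 0.0547 and 0.0369). In males they were at 0.11 and -0.12. Their deviations from the group means had a correlation of -0.63 over the 30 mice, with transcripts of 2188 bases for Kcnj8 and 7538 for Abcc9. Rgs5, a regulator of G-protein signalling abundant in pericytes, was at 0.06 in females and -0.12 in males.

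The endothelial genes were then set against the mural genes. The median Log2FC of the endothelial genes exceeded that of the mural genes by 0.14 in females and was below it by 0.10 in males (-0.10). Without SI males 25, 33 and 39 the male difference was -0.03, with medians of 0.06 for the endothelial and 0.10 for the mural genes. In each mouse the difference of the mean log2 CPM of both sets was taken. It was at 0.13 to 0.46 in SI females (median 0.34) and 0.07 to 0.36 in GH females (median 0.16). In males it was at 0.03 to 0.35 under SI (median 0.11) and 0.13 to 0.43 under GH (median 0.24). The ranges of SI and GH overlapped in both sexes. Scores over genes picked for this description were given no test.

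The endothelial mean alone was at 4.25 to 4.40 in SI females (median 4.29) and 4.08 to 4.33 in GH females (median 4.19). In males it was at 4.17 to 4.43 under SI (median 4.34) and 4.09 to 4.39 under GH (median 4.24). The smooth muscle mean had a median of 3.50 in SI females, 3.57 in GH females, 4.09 in SI males and 3.59 in GH males. The pericyte mean had medians of 4.26, 4.20, 4.28 and 4.23 in that order.

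**Figure D4:**
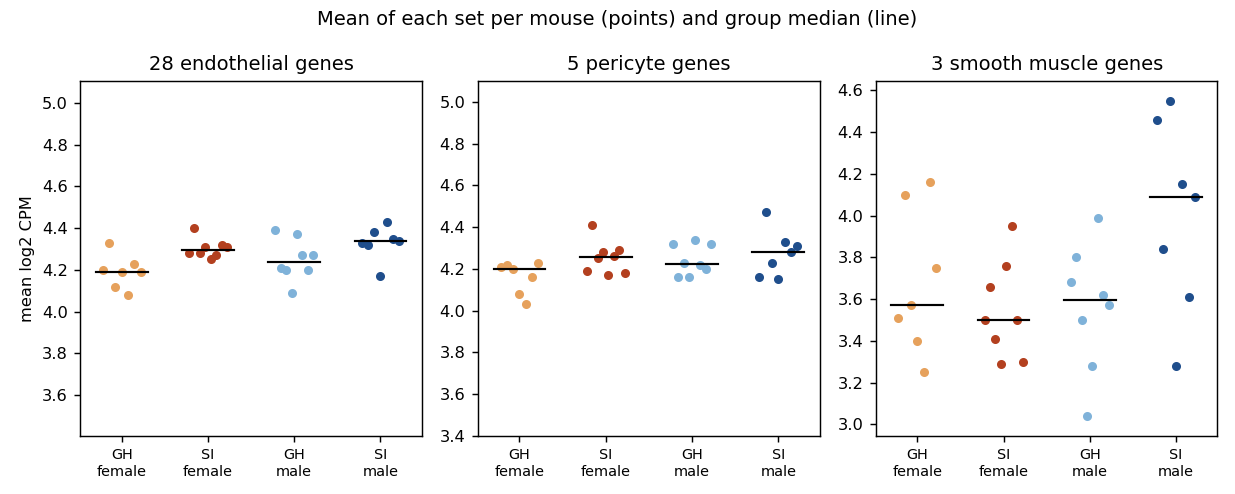
Mean log2 CPM of the 28 endothelial, 5 pericyte and 3 smooth muscle genes in each mouse (points) with the median of each group (line), each panel with its own axis. The smooth muscle mean spreads over 3.28 to 4.55 in SI males, while the endothelial mean of the same mice lies within 4.17 to 4.43.

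In the sign of the Log2FC, 21 of 28 endothelial genes (75.0%) had the same sign in females and males, 17 of them positive in both. Of the 8 mural genes 2 did (25%), and 4 were negative in females and positive in males. Over all 15770 genes tested in both sexes the share was 59.0%. No test of these shares was made.

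Whether housing acted differently in the sexes was tested for each gene with a sex-by-housing interaction term, fitted over the 30 mice together. Here 0 of the 36 genes were called, and 0% of the 16391 genes tested were. At an unadjusted p under 0.05 there were 6, against 7.49% of all genes, and in each the SI effect was lower in females: Myl9, Acta2, Pdgfrb, Vwf, Pltp and Vtn. Over all genes 418 had such a p with a lower effect in females, and 809 with a higher one. The interaction was -0.35 for Myl9 (SE 0.0886; unadjusted p = 0.000548; edgeR adjusted p = 0.573), -0.61 for Acta2 (SE 0.189; edgeR adjusted p = 0.602) and -0.34 for Tagln (SE 0.178; edgeR adjusted p = 0.688). Without SI male 27 Myl9 and Acta2 were called (1.72% of all genes were). Without SI male 7 Myl9 was called, where 385 of all 16373 genes were.

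Between the sexes at baseline, GH females were compared with GH males in the same fit. These are the same GH mice that serve as controls for the SI effects above. Of the 36 genes 2 were called, both lower in GH females, against 6.39% of all 16391 genes: Esam at -0.22 (SE 0.0575; edgeR adjusted p = 0.0273) and Eng at -0.30 (SE 0.0845; edgeR adjusted p = 0.034). Of the GH females 2 were below the lowest GH male in Esam and 5 in Eng. At an unadjusted p under 0.05 there were 9 of the 36, against 26.5% of all genes. All 9 were lower in GH females, where 13.1% of all genes had such a p and were lower and 13.3% were higher. They were Esam, Eng, Ets1, Cldn5, Nos3, Cdh5, Flt1, Kdr and Abcc9, with Cldn5 at -0.44 (SE 0.144; edgeR adjusted p = 0.0594) and Flt1 at -0.22 (SE 0.0754; edgeR adjusted p = 0.0724). Without surrogate variables, without the filter on low counts or without SI males 25, 33 and 39, 0 of the 36 were called. These fits called 16, 646 and 150 of all genes in that order. Leaving out 1 mouse gave from 0 (without GH female 47, 48 or 54, GH male 3 or 22, or SI male 38) to 9 (without GH male 15). Without GH male 15, 2583 of all 16410 genes were called, and the fits with 1 mouse left out called 117 to 2660 of all genes.

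A wider list of 101 genes that serve the same vessels was read from the same fits. In females 3 of 101 were called, 1 higher and 2 lower, and 22 had an unadjusted p under 0.05, beside 3.89% and 20.2% of all genes. These counts were 0 and 19 without GH females 71 and 79, where 267 of all 16202 genes were called. The share of all genes with an unadjusted p under 0.05 in that fit is not given. Vegfb, a ligand of VEGFR1, fell in SI females with a Log2FC of -0.23 (SE 0.0498; edgeR adjusted p = 0.0202). It was at 56.2 to 90.3 CPM in SI females (median 71.2) and 75.4 to 104 in GH females (median 80.6), and 5 of 8 SI females lay below the lowest GH female. Epas1, the hypoxia-inducible transcription factor HIF-2 alpha, which astrocytes also express, fell with a Log2FC of -0.27 (SE 0.062; edgeR adjusted p = 0.0266). It was at 182 to 218 CPM in SI females (median 200) and 205 to 297 in GH females (median 254). Of 10 astrocyte genes, 6 were also called lower in SI females, with a median Log2FC of -0.23 over the list. The summed level of the 10 ran from 4710 to 6660 CPM in SI females and 5700 to 7700 in GH females. In GH females against GH males, 6 of the 10 were called higher in GH females, with a median of 0.30, beside 6.39% of all genes called. The same GH females enter both comparisons, so the 2 results are not independent. The part of the astrocyte genes in the value of Epas1 was not tested. Col4a1, a collagen of the vascular basement membrane, rose in SI females with a Log2FC of 0.26 (SE 0.0703; edgeR adjusted p = 0.0499). It was at 22.4 to 35.5 CPM (median 29.5) against 19.1 to 28.3 in GH females (median 22.4), and 6 of 8 SI females exceeded every GH female. With 1 female left out, the call of Vegfb was lost in 3 of 15 fits (without SI female 45, 63 or 68), that of Epas1 in 5 (without any of these or GH female 54 or 71) and that of Col4a1 in 10, up to an edgeR adjusted p of 0.175. All 3 calls were lost without surrogate variables, with the labels' position digit in their place, with the added choroid plexus mean and without GH females 71 and 79 together. In males these genes had Log2FC of -0.02, -0.16 and 0.11, none of them called. Without SI male 27 Epas1 was called in males at -0.35 (edgeR adjusted p = 0.0102), and without SI males 25, 33 and 39 it was at 0.09 and not called.

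By role, the wider list gave 1 of 21 angiogenic and mural ligands and co-receptors (Vegfb), 1 of 12 other endothelial transcription factors (Epas1) and 1 of 12 basement membrane genes (Col4a1) called in females. None was called of 12 genes of the Wnt pathway that builds the barrier, 13 other junction genes, 16 other transport genes and 15 other mural genes. In males 0 of 101 were called by edgeR, with 20 at an unadjusted p under 0.05, 14 higher and 6 lower, where 13% of all genes had such a p, 5.63% higher and 7.38% lower. Without SI males 25, 33 and 39 there were 9 with such a p and 0 called. The share of all genes with such a p in that fit is not given. Without SI male 27 edgeR called 14 of the 101, beside 15.3% of all genes. The 15 other mural genes had a median Log2FC of -0.03 in females (6 positive) and 0.18 in males (12 positive). In the interaction 4 of them had an unadjusted p under 0.05, all negative. Of all 16391 genes, 7.49% had such a p there, 418 negative and 809 positive. Tjp1, encoding the tight junction scaffold ZO-1, was at 55.4 to 81.3 CPM in SI females (median 74.6) and 58.1 to 90.4 in GH females (median 79.4), with a Log2FC of -0.05 (SE 0.0412; edgeR adjusted p = 0.507). In SI males it was at 25 to 75.0 CPM (median 51.1) and in GH males at 62.6 to 79.4 (median 71.6), with a Log2FC of -0.21 (SE 0.079; edgeR adjusted p = 0.332). It was -0.39 and called without SI male 27 (edgeR adjusted p = 0.00446), and -0.02 without SI males 25, 33 and 39. Between GH females and GH males 8 of the 101 were called, 5 higher and 3 lower in females, beside 6.39% of all genes, and 0 without SI males 25, 33 and 39. Among the 8 were Epas1, higher in GH females (0.22 to 0.32 with 1 mouse left out), and Col4a1, lower (-0.33 to -0.23). Both signs were opposite to those of SI against GH in females. The same GH females enter both comparisons, with opposite sign, so the reversal is not a second, independent observation. With 1 mouse left out, Epas1 was called in 17 of 30 fits and Col4a1 in 21.

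Of the other cell types read beside the vessels, the 8 perivascular macrophage genes had negative Log2FC throughout in females (median -0.22), while in males 7 of 8 were positive (median 0.16). The 10 microglial genes were all negative in females (median -0.08) and 7 of 10 were in males (median -0.02). By edgeR 0 genes of either list were called in either sex. At an unadjusted p under 0.05 there were 0 macrophage genes in each sex and 3 microglial genes in females. Of all genes, 20.2% had such a p in females and 13% in males. The macrophage sums ran from 21.3 to 26.9 CPM in SI females and 19.7 to 32.3 in GH females, and from 16.4 to 27.1 in SI males and 14.6 to 28.8 in GH males. Stab1 had a median of 15.8 CPM in SI females, where the sum had one of 24.7. Its Log2FC was -0.01 in females and 0.04 in males. Other genes of the list were low, with lowest counts in a mouse of 3 for Pf4, 4 for Lyve1 and 6 for Ms4a7. The microglial sums ran from 393 to 524 CPM in SI females and 434 to 521 in GH females, and from 393 to 736 in SI males and 406 to 502 in GH males. SI males 25, 33 and 39 were at 736, 713 and 632 CPM, and the other SI males at 393 to 471. In males the astrocyte list was at 4020 to 6340 CPM under SI and 5130 to 7060 under GH, with 0 of 10 called.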

How the data were processed

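Poly-A RNA-seq of bulk hippocampus was measured in 30 mice. Per the labels and the study's methods, the authors trimmed reads with Trimmomatic 0.39, quantified them with Salmon 1.8.0 and tested differential expression with DESeq2 1.24.0. The labels name build GRCm39 (mm39). They deposited 1 table of raw whole-number counts per gene, without normalization, holding 17477 genes with at least 100 counts each. Whether strand was used in counting is not given in the sources used here. Symbols were matched for 16439 IDs (94.1%), and length and GC content (longest transcript, GENCODE vM1 on NCBIM37) for 15964 (91.3%).

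Each sex was fitted with edgeR 4.0.16 in R 4.3.3: filterByExpr (minimum count 10, minimum total 15), TMM, and svaseq surrogate variables of sva 3.50.0 (20 permutations, seed 1), 3 in females, 2 in males and 4 in the fit of all 30 mice. Genes were tested with the quasi-likelihood test and p-values adjusted by Benjamini-Hochberg over all genes tested (threshold 0.05). Level per mouse is CPM from TMM over all 30 mice, and log2 CPM used a prior count of 2. The steps were tested on simulated data. Depth was from 18809307 to 100844898 counts per library, and the precision reflects the spread between mice and, for low counts, counting error.

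The 36 genes, the wider list and the marker lists were chosen with earlier results of these data known. Full values are given for genes called in either sex, the 4 endothelial and 2 mural genes with the smallest p in each sex, and Cldn5, Pecam1, Mfsd2a, Abcb1a, Pdgfrb and Acta2. From the wider list called genes, Slc2a1 and Tjp1 are named. Kdr, Tagln and Eng were added after their values were seen. The erythrocyte list holds the 3 of 5 genes matched by symbol. Alternatives were DESeq2 1.42.0, fits without surrogate variables, with the digit that ends each label's position code in their place, with DESeq2 size factors, without the filter, after removing the trend on transcript length and GC content per library (lowess, span 0.3), and with mice left out. The choroid plexus covariate and the omission of GH females 71 and 79, or of SI male 7 and GH male 3, were chosen after seeing the data. Promoters were searched on both strands in 250 bases before the start.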

Additional observations from a re-analysis of the deposited data

Results flagged for a closer look

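In 4 of 144 combinations of a gene and a group, 1 mouse lay outside the others by Dixon's test at the 95% level, which chance does in about 1 of 20 groups. Slco1a4 was at 21.6 CPM in GH female 54, with the other GH females between 27.1 and 30.2. Pltp was at 57.0 CPM in GH male 3, with the other GH males between 74.5 and 91.2. Pglyrp1 was at 7.54 CPM in SI female 53, with the other SI females between 3.84 and 5.22. Acta2 was at 22.6 CPM in SI female 63, with the other SI females between 10.9 and 14.7, and that mouse had the highest choroid plexus sum among SI females, 4080 CPM.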

How the results depend on the processing

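In females, 1 of the 36 genes was called. DESeq2 called 2 (Flt1 and Pglyrp1), where it called 1263 of all 16026 genes. After the length and GC trend was removed, 5 were called (Cldn5, Esam, Flt1, Kdr and Pglyrp1), where 1544 of all 16026 genes were. The count was 0 without surrogate variables and with the position digit, where 0 of all genes were called. It was also 0 with DESeq2 size factors (645 of all genes called), with the choroid plexus covariate (165) and without GH females 71 and 79 (267). Without the filter the 1 called gene was Kdr, where 730 of all 17475 genes were called. Leaving out 1 mouse gave 0 to 3 genes in females (88 to 1428 of all genes). It gave 0 in males except for 8 without SI male 27 (2413 of all genes), and 0 to 2 in the interaction (0 to 385 of all genes). Between GH females and GH males, the 2 called genes became 0 without surrogate variables, without the filter and without SI males 25, 33 and 39. They became 0 to 9 with 1 mouse left out, where 117 to 2660 of all genes were called. The endothelial median less the mural one (0.14 in females, -0.10 in males) was 0.11 to 0.19 in females and -0.20 to -0.06 in males with 1 mouse left out. In males it was -0.37 without surrogate variables, -0.29 with the position digit, -0.06 with the length and GC trend removed and -0.03 without SI males 25, 33 and 39.

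None of the genes whose Log2FC changed sign was called in that sex, before or after the change. In females these were, with the choroid plexus covariate, Abcg2 (-0.03) and Abcb1a (0.03), after removal of the length and GC trend, Itm2a (-0.01), Abcg2 (-0.01) and Abcb1a (0.00), without the filter, Itm2a (0.00), without surrogate variables, Pltp (0.02), and with the position digit, Itm2a (-0.02), Abcg2 (-0.04), Abcb1a (0.03) and Pltp (0.03). In males Abcb1a was at 0.00 with DESeq2 size factors and by DESeq2, Ly6c1 at -0.01 with the choroid plexus covariate, and Ocln at 0.00 without the filter. Removal of the length and GC trend gave Ly6c1 -0.02, Slc2a1 -0.03, Slco1a4 0.05, Kdr 0.05 and Abcb1a 0.11. Without surrogate variables, values were -0.01 for Pdgfrb, -0.07 for Slc2a1, -0.08 for Ets1, -0.11 for Tie1, -0.11 for Vwf, -0.12 for Ocln, -0.18 for Col4a1, -0.23 for Cdh5, 0.11 for Vegfb and 0.28 for Itm2a. With the position digit they were -0.01 for Nos3, -0.07 for Ocln, -0.08 for Ets1, -0.08 for Slc2a1, -0.11 for Tie1, -0.20 for Col4a1, -0.21 for Vwf, -0.24 for Cdh5, 0.12 for Vegfb and 0.26 for Itm2a. Without SI male 7 and GH male 3 they were -0.03 for Ets1, -0.05 for Ocln, -0.08 for Slc2a1, -0.11 for Col4a1, -0.15 for Cdh5, -0.17 for Vwf, 0.00 for Pdgfrb, 0.02 for Itm2a and 0.09 for Vegfb, and without SI males 25, 33 and 39, 0.05 for Rgs5, 0.08 for Itm2a, 0.08 for Slco1a4, 0.09 for Abcb1a, 0.09 for Epas1, 0.11 for Erg and -0.06 for Slc2a1.

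With 1 mouse left out, sign changes in females gave ranges of -0.02 to 0.07 for Slco1a4, -0.01 to 0.01 for Abcb1a, -0.01 to 0.04 for Abcg2, -0.12 to 0.05 for Mfsd2a, -0.08 to 0.04 for Pltp, -0.03 to 0.03 for Itm2a and -0.06 to 0.01 for Slc2a1. In males the ranges were -0.11 to 0.04 for Ocln, -0.17 to 0.11 for Cdh5, -0.14 to 0.05 for Kdr, -0.07 to 0.13 for Tie1, -0.15 to 0.01 for Slco1a4, -0.20 to 0.09 for Abcb1a, -0.18 to 0.05 for Slc7a5, -0.06 to 0.09 for Ly6c1, -0.09 to 0.09 for Itm2a, -0.08 to 0.23 for Vwf, -0.04 to 0.20 for Sox17, -0.18 to 0.00 for Erg, -0.04 to 0.06 for Ets1, -0.06 to 0.08 for Vegfb, -0.10 to 0.20 for Col4a1 and -0.11 to 0.06 for Slc2a1.

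Acta2, Tagln and Myl9 kept their negative sign in females and their positive sign in males under every setting run. Over all genes, 3.89% were called in females, and the number went from 0 without surrogate variables or with the position digit to 1544 with the length and GC trend removed. In males 0 genes were called, and 2413 were without SI male 27. The cause of these changes was not tested. No paired analysis was possible because no animal number is shared by 2 groups. The lowest count of any of the 36 genes in a mouse was 52, where counting error alone is 13.9%.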
